A study of Mus musculus with 3 samples.

Results

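Broad H3K4me1 regions of at least 10 kb were examined in bone marrow hematopoietic stem cells of mice, together with the H3K27ac regions that lay inside them. They were chosen from the deposited H3K4me1 list by width alone, on chromosomes 1 to 19. The rule selected 458 of the 155027 H3K4me1 regions in the list. Widths and all other H3K4me1 values of these regions come from the list used for the choice and are given as a description only. H3K27ac was measured in a separate library and was not used for the choice.

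H3K4me1 is a methylation of histone H3 that is placed by MLL3 and MLL4 complexes and marks enhancers, both those in use and those held ready, as well as the flanks of active promoters. H3K27ac is an acetylation placed by CBP and p300 that marks enhancers and promoters in use. Where both marks extend over a long stretch, the stretch usually holds a cluster of enhancer elements, and such clusters are known from genes that define a cell type.

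The cells were stem cells of C57BL/6 mice aged 24 months, sorted as SP-KSL-CD150+ cells, with no treatment or engineered allele named in the labels. SP is the side population, cells that pump out a DNA dye. KSL stands for the gate on c-Kit and Sca-1 that excludes lineage-positive cells, and CD150 further enriches for long-lived stem cells. There was 1 H3K27ac library, 1 H3K4me1 library and 1 input DNA library, of which the last was not used here. All 3 are labelled with biological replicate number 1, so differences are described without p-values and have no check by replicates. Shares are given with exact Clopper-Pearson 95% intervals. These cover counting error only, and regions that lie near each other are not independent. No gene is named for a region and no sequence is shown, because coordinates are of the mouse build mm9 and the gene and promoter tables used here are of another build. For the same reason the sorted cell type was not tested against its marker genes.

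Total reads of the libraries are not given in the lists. The median summit, the highest point of a region, held 21 reads in the H3K4me1 list and 13 reads in the H3K27ac list on chromosomes 1 to 19, as recovered from the deposited fold and p-values. The weakest called summits held 10 and 8 reads. Acetylation below that level in a long region was therefore not detectable at this depth.

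The 458 regions spanned 6.35 Mb. They made up 0.301% of the H3K4me1 regions of chromosomes 1 to 19 and 3.70% of the H3K4me1 length. Their median width was 12435 bp (quartiles 10938 and 14793 bp), 194 were under 12 kb wide, 110 were 15 kb or wider and 42 were 20 kb or wider. The narrowest 3 measured 10011, 10018 and 10018 bp, and the 3 widest regions left out by the limit measured 9994, 9994 and 9989 bp. Their H3K4me1 summits had a median fold of 9.97 over local background (quartiles 8.42 and 11.2), with a median of 49 reads and a range of 29 to 72 reads. All fold values were computed by the authors' peak caller. The local background was raised by more than 5% over the genome-wide one at 38.4% of the long regions and at 42.7% of the 2697 regions nearest in width, those of 5 to 10 kb. In the latter the median fold was 8.64 and the median summit held 43 reads.

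Nearly all long regions held H3K27ac, and most held several separate H3K27ac regions. At least 1 H3K27ac region lay wholly inside 455 of the 458 long regions (99.3%, interval 98.1 to 99.9%), whereas 18.5% of all H3K4me1 regions of the autosomes held one. A wide region holds another mark more easily by its length alone, and the share was 91.7% (interval 90.5 to 92.7%) at 5 to 10 kb. The number of H3K27ac regions inside had a median of 6 (quartiles 5 and 8, range 0 to 34). Of the long regions, 334 held 4 to 9 H3K27ac regions, 77 held 10 or more and 44 held 1 to 3. At least 5 lay inside 355 of them (77.5%), against 14.1% at 5 to 10 kb and 0.502% of all autosomal H3K4me1 regions.

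The number of H3K27ac regions inside grew with width, and the number per length rose only weakly with it. Across the 458 regions, width and number had a Spearman rho of 0.611 and a Pearson r of 0.787, and width and number per 10 kb a rho of 0.162 and an r of 0.173. These points come from 1 pair of libraries and are not replicates. The median number per 10 kb was 4.87 (quartiles 3.88 and 5.96). Counted by summits over the summed length, long regions held 5.11 H3K27ac summits per 10 kb, against 4.45 at 5 to 10 kb, a ratio of 1.15, and 2.91 in narrower regions. Density differed gradually over finer classes of width, from 4.25 summits per 10 kb at 5 to 6 kb and 4.77 at 8 to 10 kb to 4.88 at 10 to 12 kb and 5.81 at 20 kb or more. No step was seen at the limit of 10 kb.

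**Figure D1:**
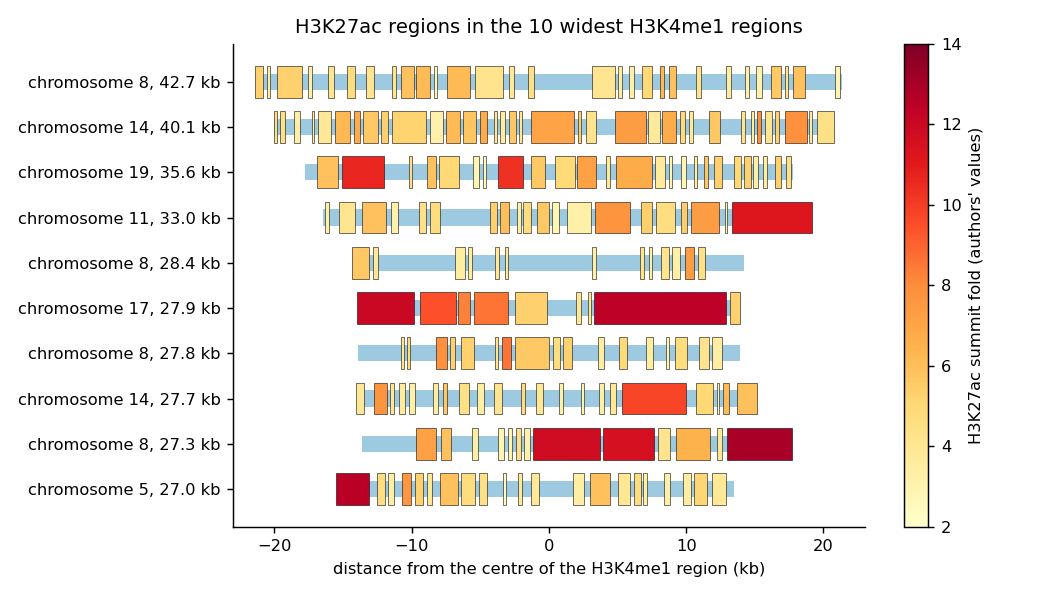
The 10 widest H3K4me1 regions (blue bars, named by chromosome and width) and the H3K27ac regions that meet them (boxes, coloured by the authors' summit fold), placed by distance in kb from the centre of the H3K4me1 region. Each held between 8 and 34 H3K27ac regions wholly inside, spread along its length, and boxes that reach past a bar cross the end of the H3K4me1 region.

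The 10 widest regions, drawn in the map of H3K27ac along the widest regions, held 194 H3K27ac regions wholly inside. The widest lay on chromosome 8 from 124809158 to 124851815 and held 28, which covered 44.4% of its 42.7 kb together with 1 more that crossed its end. Its strongest acetylated summit was only 6.21-fold and held 20 reads, and the longest stretch without acetylation was 4.21 kb. The second, on chromosome 14 from 26286879 to 26326992, held 34 H3K27ac regions, was acetylated over 64.7% of 40.1 kb and had no acetylation-free stretch over 1.53 kb. These 2 regions thus carried many modest acetylated sites and no summit of 10-fold.

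The next 2 regions in width were acetylated to a similar extent. The third widest, on chromosome 19 from 32326043 to 32361616, held 25 H3K27ac regions over 59.0% of its length, and its strongest summit was 10.6-fold. The next, on chromosome 11 from 72267805 to 72300798, held 19, which together with 1 more that crossed its end covered 62.5%. Chromosome 8 held 3 more of the 10. From 123062947 to 123091365 it had the lowest acetylated share of the 10, 21.1% with 12 H3K27ac regions, from 87243456 to 87271225 it had 39.9% with 17, and from 97473591 to 97500878 it had 63.4% with 12. The sixth widest, on chromosome 17 from 84539319 to 84567200, differed in form, since it held only 8 H3K27ac regions but was acetylated over 83.2% of its length, and 1 of them covered 34.5%. The remaining 2 were acetylated over 49.9% (chromosome 14 from 20971958 to 20999608, 19 regions) and 51.0% (chromosome 5 from 66256212 to 66283230, 20 regions). A summit of 10-fold or more lay inside 3 of the 10.

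Slightly less than 50% of the length of the long regions was acetylated, counting every shared base, also those of H3K27ac regions that cross an end. H3K27ac covered 46.5% of the summed length of the long regions, 37.3% at 5 to 10 kb, 18.4% in narrower regions and 2.24% of the autosomes as a whole. Per region the median acetylated share was 45.7% (quartiles 30.5 and 59.4%, range 0 to 100%), against 34.4% (quartiles 17.4 and 53.2%) at 5 to 10 kb, so the quartile ranges overlapped. More than 50% of the length was acetylated in 198 long regions (43.2%, interval 38.6 to 47.9%), in 29.2% (interval 27.5 to 31.0%) at 5 to 10 kb and in 10.4% of all autosomal H3K4me1 regions. Less than 20% was acetylated in 53 long regions (11.6%, interval 8.79 to 14.9%) and in 29.0% at 5 to 10 kb. The pooled share was 42.4% at 10 to 12 kb, 46.7% at 12 to 15 kb, 48.1% at 15 to 20 kb and 52.3% at 20 kb or more, a gradual difference that began below the limit with 34.6% at 5 to 6 kb.

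**Figure D2:**
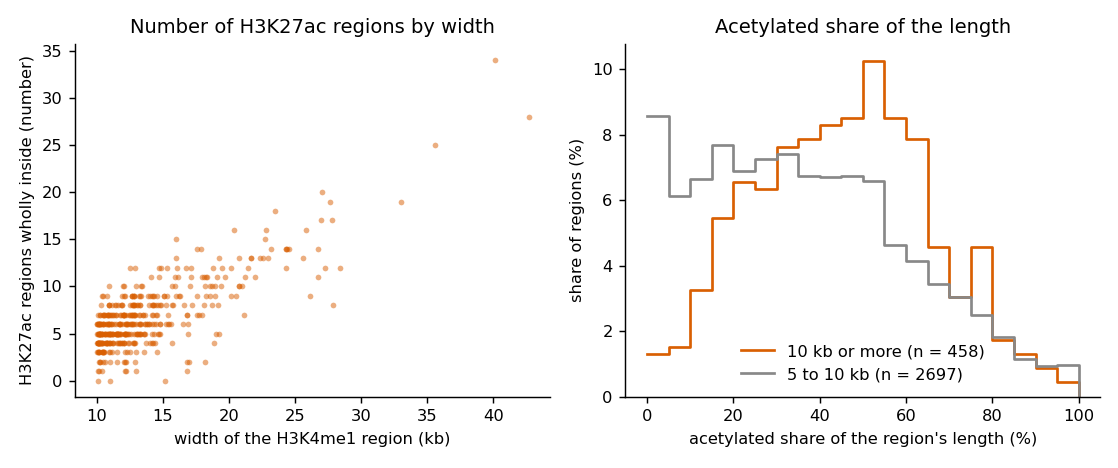
Left, the number of H3K27ac regions wholly inside each of the 458 long H3K4me1 regions against its width in kb, 1 point per region. Right, the share of regions (%) in steps of 5% of acetylated length, for long regions (orange, n = 458) and regions of 5 to 10 kb (grey, n = 2697), where the long regions centre on a median of 45.7% and the narrower ones on 34.4%.

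In the deposited list, acetylation inside a long region was usually split into many intervals and seldom formed 1 block. The peak calling options are not given, and how far the split depends on them or on depth was not tested. The largest single H3K27ac interval covered a median of 15.01% of the region's length (quartiles 8.92 and 23.4%), against 16.3% (quartiles 8.77 and 28.6%) at 5 to 10 kb. It covered more than 50% in 16 long regions (3.49%, interval 2.01 to 5.61%) and in 7.30% (interval 6.35 to 8.35%) at 5 to 10 kb. Covering more than 50% takes a longer interval in a wider region, so the difference between these shares is partly built in by width. Summits of neighbouring H3K27ac regions lay a median of 1399 bp apart (quartiles 917 and 2131 bp, 2705 pairs), against 1269 bp (quartiles 859 and 1952 bp, 4945 pairs) at 5 to 10 kb. Only H3K27ac regions wholly inside the same H3K4me1 region were paired, so a narrower region cannot hold a wide spacing. The largest spacing was 12234 bp in long regions and 7226 bp at 5 to 10 kb. These medians therefore do not compare density. The longest stretch without acetylation had a median of 2339 bp (quartiles 1587 and 3358 bp), against 2022 bp (quartiles 1274 and 3157 bp) at 5 to 10 kb, where width limits it more. It was under 2 kb in 179 long regions and at least 5 kb in 35. Where a long region held at least 2 H3K27ac regions, the ratio of the fold of the second strongest to that of the strongest had a median of 0.823 (quartiles 0.655 and 0.923, 448 regions). At 5 to 10 kb this ratio had a median of 0.781 (quartiles 0.630 and 0.889, 2099 regions). Long regions hold more H3K27ac regions to rank, and the part of their number in this ratio was not tested.

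At the other extreme, a few long regions were acetylated almost from end to end. The highest share belonged to chromosome 17 from 84352577 to 84367750, a region of 15.2 kb that lay whole inside a single H3K27ac region of 15518 bp with a summit of 19.2-fold and 91 reads. For this reason it counts among the 3 regions with no H3K27ac region wholly inside, although all of it was acetylated. The next were on chromosome 1 from 92951430 to 92963575 (97.2%), chromosome 17 from 28152559 to 28164647 (93.4%), chromosome 15 from 77643059 to 77656035 (92.5%) and chromosome 8 from 86722544 to 86734764 (91.9%). Each of these 4 met 2 or 3 H3K27ac regions. On chromosomes 1 and 15 the strongest summit inside was 13.0-fold and 19.4-fold. In the other 2, the H3K27ac region that covered the largest part crossed the start of the H3K4me1 region and had its summit outside it. On chromosome 17 this was a region of 15033 bp with a summit of 25.1-fold, which covered 56.7% of the H3K4me1 region, and the strongest summit inside was 5.91-fold. On chromosome 8 it had a summit of 31.9-fold and covered 58.6%, and the strongest summit inside was 16.8-fold.

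The other 2 regions without an H3K27ac region inside had no acetylation at all. One lay on chromosome 19 from 25678326 to 25688455, with an H3K4me1 summit of 7.37-fold and 34 reads. The nearest H3K27ac regions lay 166.0 kb before it and 99.3 kb after it. Another lay on chromosome 2 from 105506740 to 105517746, with a summit of 7.58-fold and 35 reads, and its nearest H3K27ac regions lay 193.7 kb before and 25.99 kb after. All 4 of these neighbours were weak, from 2.95-fold to 3.84-fold, with 9 to 12 reads. Next in order of acetylated share were chromosome 5 from 90752287 to 90762501 (2.10%), chromosome 1 from 39998214 to 40010410 (2.75%) and chromosome 19 from 45303504 to 45313626 (3.26%), each with 1 H3K27ac region of 9 to 12 reads. Their H3K4me1 summits of 38 to 42 reads lay in the lower part of the range of the long regions.

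Acetylated share differed with the number of H3K4me1 summit reads, and less with the H3K4me1 summit fold. In the 123 long regions with the fewest H3K4me1 summit reads (29 to 45 reads) the median acetylated share was 35.0% (quartiles 18.02 and 49.7%). In the 101 regions with the most (55 to 72 reads) it was 53.2% (quartiles 42.3 and 66.7%). These classes also differed in median width, 11576 and 13313 bp, and the part of width in the difference was not tested. Summit reads and acetylated share had a Spearman rho of 0.339 and a Pearson r of 0.353 over the 458 regions. For H3K4me1 fold in place of reads, the rho was 0.232 and the r 0.230. The number of H3K27ac regions per 10 kb did not follow the same order, with medians of 4.79 and 4.75 in the same classes. Acetylated share went instead with the fold of the strongest H3K27ac region inside (rho of 0.732, r of 0.656, 455 regions), which shares its library with the acetylated share.

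The densest long regions in H3K27ac had modest summits. The highest number per 10 kb was 9.59, on chromosome 13 from 40986260 to 40998776, where 12 H3K27ac regions covered 51.2% of 12.5 kb. It was 9.37 on chromosome 11 from 88360235 to 88376236 (15 regions), 9.30 on chromosome 16 from 91760756 to 91773657 (12 regions), 9.13 on chromosome 10 from 41963333 to 41974281 (10 regions) and 8.64 on chromosome 1 from 51352597 to 51363016 (9 regions). The strongest acetylated summit in these 5 regions ranged from 5.32-fold to 6.501-fold. Their longest acetylation-free stretch ranged from 0.844 kb to 2.23 kb.

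H3K27ac regions inside long regions had nearly the same median fold and reads as those in H3K4me1 regions of 5 to 10 kb. The 3247 H3K27ac regions with their summit in a long region had a median fold of 4.43 (quartiles 3.55 and 5.61), a median of 15 summit reads and a median width of 506 bp. In regions of 5 to 10 kb the 7865 values had a median of 4.41-fold (quartiles 3.55 and 5.61), 15 reads and 485 bp, and in narrower regions a median of 4.14-fold, 14 reads and 385 bp. The share of H3K27ac regions at least 2 kb wide was 9.58% (interval 8.59 to 10.6%) in long regions, 8.29% (interval 7.69 to 8.92%) at 5 to 10 kb and 2.66% in narrower ones. The long regions thus exceeded regions of 5 to 10 kb by 1.15 times in density while the median folds differed by less than the quartile range.

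Summits of 10-fold or more made up a small share of the acetylated summits in H3K4me1 regions of every width class. Of the 3247 summits, 114 in long regions were of 10-fold or more (3.51%, interval 2.90 to 4.20%), against 7.75% of all autosomal H3K27ac summits. The share was 4.35% (interval 3.91 to 4.82%) at 5 to 10 kb, 3.25% (interval 3.08 to 3.42%) in narrower regions and 13.8% outside H3K4me1. Counted per region, 100 of the 458 long regions held such a summit (21.8%, interval 18.1 to 25.9%), against 11.9% (interval 10.7 to 13.2%) at 5 to 10 kb and 1.19% of all autosomal H3K4me1 regions, where longer regions hold more summits of any fold. A summit of 6-fold or more lay in 321 long regions (70.1%), in 44.3% at 5 to 10 kb and in 5.06% of all. Only 14 long regions held 2 summits of 10-fold or more.

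The strongest acetylated summits inside long regions were 24.2-fold with 81 reads on chromosome 11 from 86401043 to 86412606, 22.8-fold with 76 reads on chromosome 2 from 103771431 to 103789599 and 21.9-fold with 73 reads on chromosome 1 from 74285154 to 74297791. They were followed by 20.4-fold with 68 reads on chromosome 10 from 80867069 to 80885911 and 19.4-fold with 71 reads on chromosome 15 from 77643059 to 77656035. These 5 regions were 11.6 to 18.8 kb wide, and none of them was among the 10 widest. They met 2 to 6 H3K27ac regions each, fewer than the median of 7 for all long regions, and were acetylated over 55.6 to 92.5% of their length.

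H3K27ac was more frequent in the middle of the long regions than near their ends. When each region was divided into 10 equal parts, 34.3% and 37.5% of positions were acetylated in the first and last part, and 52.3% and 51.2% in the fifth and sixth. The ratio of outer to inner parts was 0.693. Regions of 5 to 10 kb had 27.6% and 27.8% in the outer parts and 42.3% and 41.3% in the inner ones. An acetylated summit lay inside 456 of the 458 long regions and 2510 of the 2697 regions of 5 to 10 kb. The strongest lay in the middle 50% of the length in 278 and 1543 of these. Over all regions, the shares were 60.7% (interval 56.1 to 65.2%) and 57.2% (interval 55.3 to 59.1%). These shares count regions without a summit as not in the middle, so they do not compare position alone. The H3K4me1 summit lay in the middle 50% in 282 long regions (61.6%, interval 56.9 to 66.0%) and in 65.3% (interval 63.5 to 67.1%) at 5 to 10 kb.

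The H3K4me1 summit of a long region usually lay in acetylated chromatin. It lay inside an H3K27ac region in 331 of the 458 long regions (72.3%, interval 67.9 to 76.3%), against an acetylated share of 46.5% over all positions, a ratio of 1.56. At 5 to 10 kb the share was 57.0% (interval 55.1 to 58.8%) with a ratio of 1.53, and in narrower regions it was 16.1%. The median distance from the H3K4me1 summit to the nearest H3K27ac summit was 430 bp in long regions (quartiles 153 and 837 bp) and 493 bp (quartiles 181 and 1027 bp) at 5 to 10 kb.

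At equal distance from an end, long regions were more acetylated than regions of 5 to 10 kb at most of the distances measured, by differing amounts. At 0.5 kb inside an end, 35.2% of positions were acetylated in long regions and 29.5% at 5 to 10 kb. The values were 39.5% and 35.5% at 1 kb and 46.7% and 40.0% at 2.5 kb. Further in, where only the wider of the 5 to 10 kb regions reach, they were 45.1% and 43.6% at 3 kb, 47.2% and 49.7% at 4.5 kb and 50.9% and 40.6% at 4.75 kb.

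**Figure D3:**
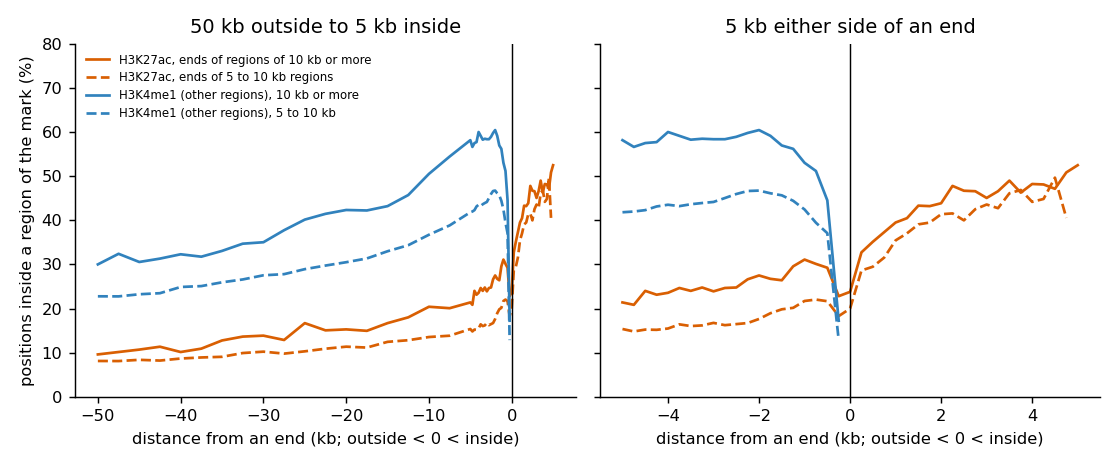
Share of positions (%) inside an H3K27ac region (orange) or another H3K4me1 region (blue) by distance from the ends of long H3K4me1 regions (solid, 916 ends) and of regions of 5 to 10 kb (dashed), with outside positions below 0 kb. At 20 kb outside the long regions 15.3% of positions were acetylated and 42.4% lay in H3K4me1, against 11.4% and 30.5% for the narrower class.

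Long regions did not stand alone but lay in wider neighbourhoods rich in both marks. Another H3K4me1 region lay within 1 kb of an end in 404 of the 458 (88.2%, interval 84.9 to 91.0%) and within 1 kb of both ends in 209 (45.6%, interval 41.0 to 50.3%). At 5 to 10 kb these shares were 79.8% (interval 78.2 to 81.3%) and 32.3% (interval 30.5 to 34.1%). No such share is given for H3K4me1 regions under 5 kb, so a close neighbour is not shown to be particular to long regions. The median gap to the next H3K4me1 region was 551 bp (quartiles 284 and 1390 bp), and no gap between H3K4me1 regions in the list was under 197 bp, so many ends divide a longer marked stretch. Outside the ends, 58.2% of positions at 5 kb, 50.5% at 10 kb, 42.4% at 20 kb and 30.0% at 50 kb lay in other H3K4me1 regions, compared with 6.94% of the autosomes. Acetylation outside was 21.4% at 5 kb, 15.3% at 20 kb and 9.61% at 50 kb, so it was still above the 2.24% of the autosomes at 50 kb. Strong acetylated summits of 10-fold or more lay within 1 kb outside an end at 49 of the 916 ends (5.35%, interval 3.98 to 7.01%) and at 5.62% (interval 5.02 to 6.27%) of the ends of 5 to 10 kb regions, so a difference was not detectable.

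When H3K4me1 regions separated by up to 1 kb were joined, 2098 stretches reached 10 kb, and 398 of them contained all of the long regions. The longest joined stretch measured 172450 bp, on chromosome 6 from 133990309 to 134162758, and was made of 29 H3K4me1 regions. The 398 stretches were acetylated over 40.6% of their length (median per stretch 39.3%, quartiles 27.5 and 51.5%) and held 4.74 H3K27ac summits per 10 kb. The other 1700 stretches, made of shorter regions only, were acetylated over 28.6% (median 25.7%, quartiles 14.4 and 39.0%) and held 3.73 summits per 10 kb. Median widths differed too, 20348 bp for the 398 stretches and 12812 bp for the 1700, and the part of width was not tested. H3K4me1 itself filled 93.4% of the first and 85.4% of the second kind of stretch.

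Some of the long regions also lay close to each other. Grouping long regions up to 50 kb apart gave 353 groups, of which 284 were single regions, 51 were pairs and 18 held 3 or more. In all, 174 long regions (38.0%) had another within that distance. No share under the same rule is given for other H3K4me1 regions, so closer spacing than theirs is not shown. The acetylated shares of grouped and single regions differed by much less than their quartile ranges, with medians of 45.7% (quartiles 30.9 and 61.2%) and 45.8% (quartiles 30.3 and 58.7%), and their median widths were 12849 and 12078 bp.

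**Figure D4:**
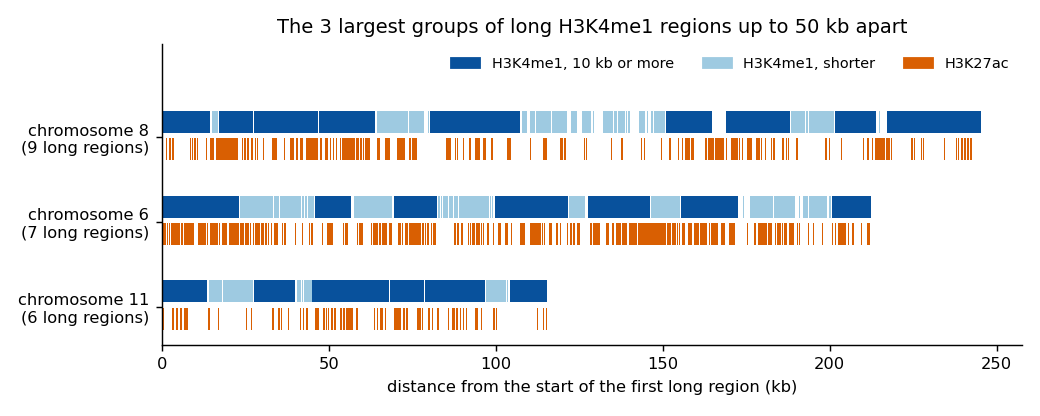
The 3 largest groups of long H3K4me1 regions up to 50 kb apart, on chromosomes 8, 6 and 11, with distance in kb from the start of the first long region. Upper bars show H3K4me1 regions, dark where 10 kb or more, and lower bars show H3K27ac regions, which cover 32.2%, 52.0% and 24.2% of the 3 spans.

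The largest group lay on chromosome 8 from 122845912 to 123091365 and held 9 long regions within 245.5 kb. The long regions alone filled 65.7% of that span, all H3K4me1 regions filled 89.5%, and 109 H3K27ac regions filled 32.2%. Its long regions were 10.1 to 28.4 kb wide, and their acetylated shares ranged from 9.77 to 74.9%. The most acetylated of them, from 122863111 to 122873194, owed 56.4% of its length to 1 H3K27ac region and stood between 2 long regions with 21.1% and 45.4%. No long region of this group held a summit of 10-fold or more, and the strongest summit inside was 9.46-fold.

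The second group lay on chromosome 6 from 133990309 to 134202757, with 7 long regions in 212.4 kb, H3K4me1 over 92.8% and 124 H3K27ac regions over 52.0% of the span. Its long regions ranged from 32.0 to 74.5% in acetylated share. The third, on chromosome 11 from 18792341 to 18907806, had the highest coverage by H3K4me1, 96.1% of 115.5 kb, with 6 long regions. Only 24.2% of it was acetylated, by 54 H3K27ac regions, and its long regions ranged from 11.1 to 49.2%. The next, on chromosome 18 from 55001053 to 55115791, held 5 long regions with H3K4me1 over 63.7% and acetylation over 19.99% of its 114.7 kb. After these, 3 groups held 4 long regions each, and they differed in acetylation. Their acetylated shares ranged from 55.9 to 87.7% on chromosome 19 from 32252523 to 32406414, from 43.0 to 75.8% on chromosome 7 from 142730771 to 142853292 and from 20.1 to 34.6% on chromosome 5 from 119021248 to 119099241. In the 3 largest groups, H3K4me1 thus covered at least 89.5% of the span while the acetylated share differed by more than 2-fold between the second and the third.

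About as many long regions lay inside the largest acetylated domains as outside them. H3K27ac regions up to 12.5 kb apart were joined into 30221 domains, and the 302 with the largest acetylated length were taken as the top 1%. Of the long regions, 243 (53.1%, interval 48.4 to 57.7%) met such a domain, against 23.6% (interval 22.0 to 25.2%) at 5 to 10 kb and 5.12% of all autosomal H3K4me1 regions. With the midpoint of the region in place of its whole width, the shares were 52.8% for long regions and 23.2% at 5 to 10 kb. Of the 42 long regions of 20 kb or more, 35 met a top domain. The acetylated bases inside a region count toward the rank of its own domain, more so in a wide region. These differences between width classes are therefore partly built in by the ranking, and the midpoint does not remove this. In the other direction, 149 of the 302 top domains (49.3%, interval 43.6 to 55.1%) met a long region, and 1.16% of all domains did. This contrast is also partly built in. A domain with a large acetylated length meets another region more easily, and the acetylated bases in a long region raise the rank of its domain. H3K27ac regions of 4 kb or more, 427 in number, met a long region in 95 cases (22.2%, interval 18.4 to 26.5%). Of the 9 H3K27ac regions of 10 kb or more, 6 did (66.7%, interval 29.9 to 92.5%). Among all autosomal H3K27ac regions, 3.51% had their summit in a long region, which is a stricter rule than meeting one. A wide H3K27ac region also meets another region more easily by its length alone.

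**Figure D5:**
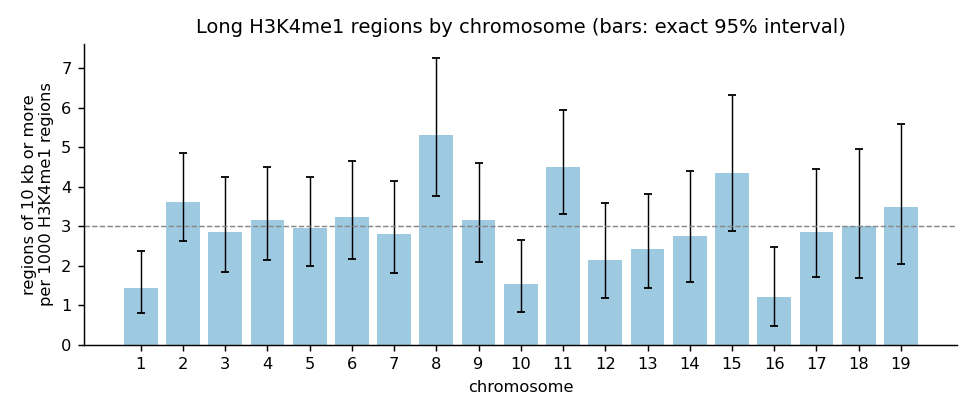
Long H3K4me1 regions per 1000 H3K4me1 regions of each chromosome, with exact 95% intervals as error bars and the autosomal value of 3.01 as a dashed line. Chromosome 8 stands highest at 5.31 and chromosome 16 lowest at 1.203.

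Long regions were spread unevenly over the chromosomes. Chromosome 11 held 48, chromosome 2 held 44 and chromosome 8 held 39, whereas chromosome 16 held 7 and chromosome 10 held 13. Per length they ranged from 7.12 per 100 Mb on chromosome 16 to 39.4 on chromosome 11, with 18.5 over all autosomes. Relative to the number of H3K4me1 regions on the same chromosome, they numbered 5.31 per 1000 on chromosome 8 (interval 3.78 to 7.26) and 4.49 on chromosome 11 (interval 3.31 to 5.95). The lowest values were 1.203 on chromosome 16 (interval 0.484 to 2.48), 1.43 on chromosome 1 (interval 0.803 to 2.36) and 1.55 on chromosome 10 (interval 0.824 to 2.64). The intervals of these 5 chromosomes left out the autosomal value of 3.01, and those of the other 14 chromosomes included it. The autosomal value includes each of these chromosomes, and the intervals were not adjusted for the number of chromosomes. They also treat long regions as independent, although 9 of those on chromosome 8 lie in a single group. Chromosome 1, the longest, thus held only 15 long regions among 10464 H3K4me1 regions. The median acetylated share of long regions ranged from 38.0% on chromosome 5 to 58.3% on chromosome 14. On chromosome X, outside the rule, none of 3067 H3K4me1 regions reached 10 kb and the widest measured 7507 bp. Only 3 of them were 5 kb or wider, 0.978 per 1000, against 20.8 per 1000 on the autosomes. Read depth on chromosome X is not compared here with that on the autosomes, and the cause of this difference was not tested.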

How the data were processed

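The peak lists of 1 H3K27ac and 1 H3K4me1 library were used. Per the submitters' processing notes, the tools were Bowtie2 2.0.6 and MACS2 2.0.10.20131216 and the build was mm9. Peak calling options and the control are not given in the sources used here. Each deposited list gives per region its position, the summit offset, the authors' fold (ratio of summit signal to local background), a deposited −log10 p and −log10 q of the summit, and a deposited score, which was not used. Coordinates are printed counting from 1. No H3K4me1 region passed an mm9 chromosome end (lengths from GenomeInfoDb 1.38.1).

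The region choice and all comparisons were made with earlier results of these data known. An H3K27ac region was inside when it lay wholly within the H3K4me1 region, and acetylated length counted shared bases. Summit reads were recovered as the whole number that gives the deposited −log10 p within 0.001, if fold is (reads + 1)/(background + 1), which held for 100% of summits. A background over 1.05 times the genome-wide one counted as raised and was found at 176 of the 458 long regions. Functions were tested on simulated data. Regions named were the 10 widest, 5 each with the highest and lowest acetylated share, most H3K27ac per 10 kb and strongest H3K27ac summit, those with none inside, those next to the limit and the largest group. Other groups, the longest joined stretch and the extreme chromosomes were chosen after their values were seen, as were the domain, end distance and joined stretch comparisons. Planned gene and sequence descriptions were not made, since no mm9 annotation or genome was used here. Alternatives changed the width limit, the meaning of inside, the q limit, the background, the joining and the comparison class. Computations ran in Python 3.11.15 with scipy 1.17.1, pandas 2.3.3 and numpy 2.4.6, and figures in matplotlib 3.10.9.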

Additional observations from a re-analysis of the deposited data

How the results depend on the processing

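Of 39 alternative values, 27 moved, by a factor over 1.5 (counts and medians), by leaving the counting interval (the share with H3K27ac inside) or in the third digit (the rest). The number of long regions (458 as reported) was 889 at 8 kb or more, 264 at 12 kb, 110 at 15 kb and 2098 with H3K4me1 joined over 1 kb. The share with H3K27ac inside (99.3%) was 95.2% with a −log10 q limit of 5, 69.4% at 10 and 97.2% with joining. The median number inside (6) was 10 at 15 kb or more, 3 with a −log10 q limit of 5 and 1 at 10. The acetylated share (46.5%) was 44.6% at 8 kb or more, 48.5% at 12 kb and 50.1% at 15 kb, 36.8% and 23.3% with −log10 q limits of 5 and 10, 46.2% without raised local background and 32.0% with joining. The density ratio to regions of 5 to 10 kb (1.15) was 1.18 and 1.11 with −log10 q limits of 5 and 10, 1.13 without raised background and 1.07 against 8 to 10 kb, so it stayed above 1 in these settings. The ratio of outer to inner parts (0.693) was 0.714, 0.713 and 0.741 at 8, 12 and 15 kb or more, 0.641 and 0.597 with −log10 q limits of 5 and 10, and 0.672 without raised background, so it stayed below 1 in these settings. For these moves the cause was not tested, apart from the smaller or larger sets that the limits leave by construction. No paired analysis was possible because there is a single library for each mark. Depth limits what was called as acetylated, since no H3K27ac summit under 8 reads was called.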
